A study of Xenopus laevis with 9 samples.

Results

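The msx and dlx genes encode homeodomain transcription factors of the neural border, the strip of ectoderm between the neural plate and the future epidermis. Here every row of the count table whose gene symbol, without the ending .L or .S, is msx1, msx2, dlx3, dlx5 or dlx6 was taken, which gave 10 of 58413 rows. Xenopus laevis, the African clawed frog, carries duplicated subgenomes, so each of these genes has an L copy and an S copy, and the copies were kept apart. Of the 10 copies, 8 had enough counts to be tested. The samples were the anterior part of wild-type embryos, dissected at Nieuwkoop-Faber (NF) stage 12.5, at the end of gastrulation, and kept in the agent until NF stage 15, in neurulation. The 3 treatments had 3 RNA-seq libraries each, namely 10 µM 4-oxo-RA (4-oxo-retinoic acid, a derivative of retinoic acid), 1 µM RA (retinoic acid) and the DMSO control, whose label also reads 10 µM. The retinoid doses therefore differed, and values for the 2 retinoids describe these treatments as given, not the compounds at a common dose. The labels say that the embryos came from 3 females but do not tie a replicate number to a female, so p-values measure the spread between these libraries.

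In vertebrate embryos, msx and dlx genes respond to intermediate or high bone morphogenetic protein (BMP) signalling, together with Wnt and Fgf signals. Msx proteins act with Pax3 and Zic1 upstream of the neural crest genes. Dlx3 and Dlx5 mark the outer border and the non-neural ectoderm, from which cranial placodes and epidermis arise, and Dlx6 lies beside Dlx5 and is largely expressed with it. Retinoic acid is a morphogen that patterns the neural plate along the head-to-tail axis, and placode formation also depends on its level.

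Library totals ran from 9768025 to 15884096 counts with 4-oxo-RA, from 11057548 to 16162443 counts with RA and from 9404644 to 20883648 counts with DMSO. The retinoid-induced enzyme gene cyp26a1.S averaged 544.7 ± 19.2 CPM (counts of a gene per 1e6 counts of its library) with 4-oxo-RA, 1152 ± 150 CPM with RA and 15.3 ± 3.28 CPM with DMSO (SD, n = 3 each). dhrs3.L, a second retinoid-induced gene, rose likewise (log2 fold change 4.35 with 4-oxo-RA and 4.95 with RA, edgeR adjusted p = 1.48e-05 and 5.06e-06). dhrs3.S was at log2 2.84 and 2.75 in the same order, not called (edgeR adjusted p = 0.230 and 0.147). These genes set the retinoid libraries apart from the DMSO libraries. They do not check the labels of the retinoids against each other. Summed markers of neural plate were at 1161 to 1402 CPM with 4-oxo-RA, 1012 to 1358 CPM with RA and 1056 to 1366 CPM with DMSO, and no marker row of that list was at 0. Markers of anterior neural and eye tissue summed to 492 to 609 CPM, 421 to 575 CPM and 756 to 868 CPM in the same order of groups. Markers of the neural crest summed to 269 to 297 CPM with 4-oxo-RA, 169 to 349 CPM with RA and 414 to 478 CPM with DMSO. These are bulk libraries, in which fewer cells of a type and less RNA per cell cannot be told apart. In the tests below a gene was called when its Benjamini-Hochberg adjusted p in edgeR's quasi-likelihood test over 20811 genes was below 0.05, and fold changes are log2 values.

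Of the 5 genes, msx2 and msx1 held the clearest differences. msx2.L, the copy that carries nearly all msx2 counts, had 34.8, 33.6 and 26.9 CPM with 4-oxo-RA, 26.6, 27.5 and 24.7 CPM with RA, and 70.9, 69.1 and 63.9 CPM with DMSO. Every retinoid library lay below every DMSO library. The RA libraries were the closest together in CPM but not in log2 CPM. There, deviations from the group mean ran from -0.088 to 0.069 with RA and from -0.088 to 0.062 with DMSO. msx2.L fell to 0.467 times the DMSO level with 4-oxo-RA (log2 fold change -1.10, SE 0.13, edgeR adjusted p = 0.00289) and to 0.386 times with RA (log2 fold change -1.37, SE 0.13, adjusted p = 3.05e-04). It kept its call in 17 of 17 alternative analyses in each comparison, and with any 1 library left out the edgeR adjusted p stayed between 0.00872 and 0.0221 with 4-oxo-RA and between 0.00159 and 0.00294 with RA. The S copy of msx2 had 3 counts in all, all of them in DMSO libraries, and was not tested.

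The msx1 copies were both lower with either retinoid, and the L copy passed the test. msx1.L, a border specifier that responds to BMP and Wnt in the frog, had 56.9, 67.7 and 67.3 CPM with 4-oxo-RA, 65.3, 52.7 and 67.4 CPM with RA, and 106, 96.5 and 138 CPM with DMSO. The groups did not overlap, and DMSO replicate 3 was the highest library. The log2 fold change was -0.82 with 4-oxo-RA (SE 0.16, 95% interval -1.17 to -0.48, edgeR adjusted p = 0.0408) and -0.88 with RA (SE 0.16, 95% interval -1.22 to -0.53, adjusted p = 0.0177). The 4-oxo-RA call was lost when any 1 of the 6 libraries was left out, at edgeR adjusted p of 0.0549 to 0.182, and also under limma-voom, with only the 2 groups in the fit and with L and S counts summed. The RA call was lost without RA replicate 2 or DMSO replicate 3, at an adjusted p of up to 0.0741. With the replicate number as a block, which removes what libraries of the same number share, the edgeR adjusted p was 5.22e-04 with 4-oxo-RA and 1.40e-04 with RA.

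msx1.S had 40.4, 39.5 and 36.9 CPM with 4-oxo-RA, 47.4, 29.1 and 36.3 CPM with RA, and 56.9, 50.7 and 60.9 CPM with DMSO. Again no retinoid library reached a DMSO library, and RA replicate 1 came nearest. Its log2 fold change was -0.53 with 4-oxo-RA (SE 0.17, edgeR adjusted p = 0.404) and -0.58 with RA (SE 0.17, adjusted p = 0.181), so neither was called. With the replicate block both were, at edgeR adjusted p of 0.0366 with 4-oxo-RA and 0.00904 with RA. These blocked calls were lost without any 1 replicate number with 4-oxo-RA, at 0.0545 to 0.267, and without number 2 or 3 with RA, at 0.0758 and 0.0880.

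**Figure D1:**
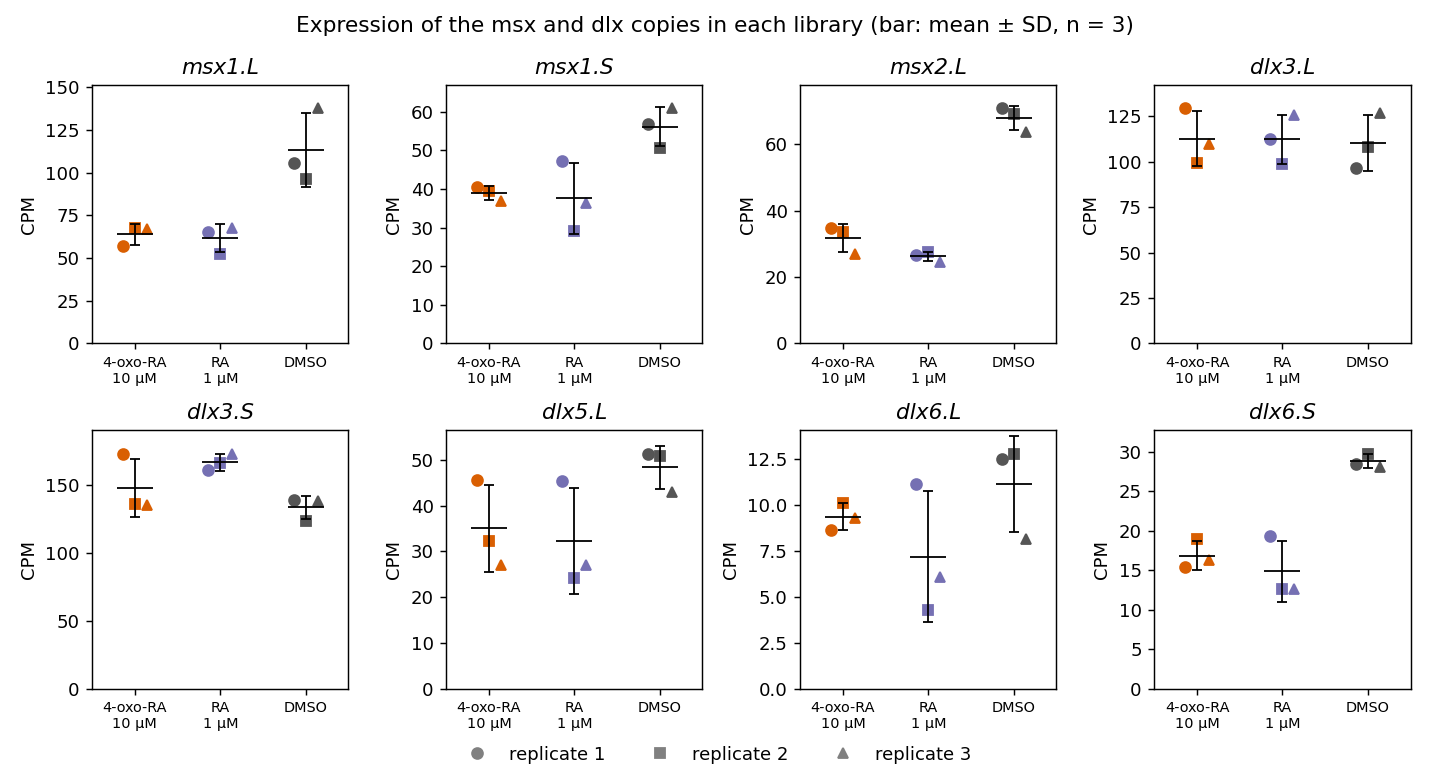
Expression in CPM of the 8 tested copies, a panel each, in the 4-oxo-RA, RA and DMSO libraries; points are libraries, marker shapes are replicate numbers, and bars are mean ± SD (n = 3). For msx2.L the 4-oxo-RA libraries sit between 26.9 and 34.8 CPM and the RA libraries between 24.7 and 27.5 CPM, below the DMSO libraries at 63.9 to 70.9 CPM, while the groups of dlx3.L overlap.

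The copies of dlx5 and dlx6, neighbours in the RefSeq annotation of the frog genome for both L and S, gave a mixed picture in which only dlx6.S was called. dlx6.S had 15.4, 18.9 and 16.2 CPM with 4-oxo-RA, 19.3, 12.6 and 12.6 CPM with RA, and 28.5, 29.8 and 28.1 CPM with DMSO. The DMSO libraries lay close together and all above the retinoid libraries, of which RA replicate 1 was the highest. The log2 fold change was -0.77 with 4-oxo-RA (SE 0.19, edgeR adjusted p = 0.152) and -0.96 with RA (SE 0.19, adjusted p = 0.0281), a fall to 0.514 times the DMSO level in the RA libraries. That RA call held without RA replicate 1, at an edgeR adjusted p of 0.00502, and was lost when any other RA library or any DMSO library was left out, at up to 0.132. It was also lost with only the 2 groups in the fit (adjusted p = 0.0603) and with L and S summed (0.0879). With the replicate block dlx6.S was called in both comparisons, at edgeR adjusted p of 0.0137 with 4-oxo-RA and 0.00128 with RA, and the 4-oxo-RA call was lost without number 2 or 3, at 0.05005 and 0.0810. Without the block, the 4-oxo-RA value was also called by DESeq2 and with no filter on low counts.

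dlx5.L, a gene of the outer border and of placodes, had 45.7, 32.3 and 27.0 CPM with 4-oxo-RA, 45.4, 24.3 and 27.0 CPM with RA, and 51.4, 50.9 and 43.0 CPM with DMSO. In both retinoid groups replicate 1 lay within the DMSO range and the other libraries below it. The log2 fold change was -0.47 with 4-oxo-RA (SE 0.25, edgeR adjusted p = 0.943) and -0.59 with RA (SE 0.25, adjusted p = 0.476). In the blocked fit the RA value was called (log2 fold change -0.65, edgeR adjusted p = 0.0116) and the 4-oxo-RA value was not (log2 fold change -0.51, adjusted p = 0.0696). That RA call was lost without number 2 or 3, at edgeR adjusted p of 0.175 and 0.0587, and the 4-oxo-RA value was called without number 1, at 0.0266. dlx5.S had 0 counts in all 9 libraries, which by counting error alone allows up to 0.0799 CPM in the 4-oxo-RA group, 0.0731 CPM in the RA group and 0.0606 CPM in the DMSO group.

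dlx6.L had 8.67, 10.1 and 9.32 CPM with 4-oxo-RA, 11.2, 4.29 and 6.09 CPM with RA, and 12.5, 12.8 and 8.15 CPM with DMSO. Both retinoid groups overlapped the DMSO group. The log2 fold change was -0.25 with 4-oxo-RA (95% interval -0.95 to 0.46) and -0.64 with RA (95% interval -1.36 to 0.07), and neither passed the test with or without the replicate block. With the block and without number 1 the RA value was called, at an edgeR adjusted p of 0.0339.

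A row at 0 need not mean a silent copy in this table. In 957 of the 5155 L and S pairs that have a copy at a mean of at least 5 CPM, or 18.6%, the other copy was at 0 in every library, as dlx5.S was. Reads of near-identical copies can also be split between them by the authors' counting, whose program is not given in the sources used here, and values of single copies carry that uncertainty.

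The dlx3 copies were not lower with either retinoid. dlx3.L, an early gene of non-neural ectoderm, had 129, 99.2 and 110 CPM with 4-oxo-RA, 112, 98.9 and 126 CPM with RA, and 96.4, 108 and 127 CPM with DMSO. The 3 groups overlapped throughout. The log2 fold change was 0.03 with 4-oxo-RA (95% interval -0.29 to 0.34) and 0.02 with RA (95% interval -0.29 to 0.34). Both intervals exclude a fall of the size seen for msx1.L or msx2.L.

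dlx3.S had 173, 136 and 136 CPM with 4-oxo-RA, 161, 167 and 173 CPM with RA, and 139, 124 and 138 CPM with DMSO. All RA libraries lay above all DMSO libraries, while the 4-oxo-RA group overlapped the DMSO group. The share of all genes with every RA library above every DMSO library was not computed. The log2 fold change was 0.15 with 4-oxo-RA (SE 0.11) and 0.32 with RA (SE 0.11, edgeR adjusted p = 0.332). With the replicate block the RA value alone was called, at log2 0.32 and an edgeR adjusted p of 0.0437. This call of a higher level was lost without number 2 or 3, at edgeR adjusted p of 0.270 and 0.165.

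In counts of the whole set, 2 of 8 copies fell with 4-oxo-RA (msx1.L and msx2.L) and 3 of 8 with RA (msx1.L, msx2.L and dlx6.S), and edgeR, DESeq2 and limma-voom called none higher in either comparison. The only rise at an unadjusted edgeR p below 0.05 was that of dlx3.S with RA. Over all 20811 genes, 0.111% were called lower and 0.625% higher with 4-oxo-RA, and 0.456% lower and 1.22% higher with RA. With the replicate block 4 copies fell with 4-oxo-RA, against 1.31% of all genes called lower and 2.05% called higher. In the same fit 5 copies fell and 1 rose with RA, against 3.17% of all genes called lower and 3.50% called higher. Without replicate number 2 or 3 the blocked fit called 2 copies with 4-oxo-RA (msx1.L and msx2.L) and 3 with RA (these and dlx6.S). Over all genes, without number 2 or 3, 376 of 20333 and 408 of 20155 were called with 4-oxo-RA. With RA these were 822 of 20333 and 806 of 20155, in either direction. The median log2 fold change of the 8 copies was -0.50 with 4-oxo-RA and -0.62 with RA, and that of all tested genes was 0.00 in both. All 3 retinoid libraries lay below all 3 DMSO libraries for 4 copies in each comparison, which 5.28% of all genes did with 4-oxo-RA and 6.96% with RA. The comparisons with 4-oxo-RA and with RA share the DMSO libraries, so they are not independent of each other.

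**Figure D2:**
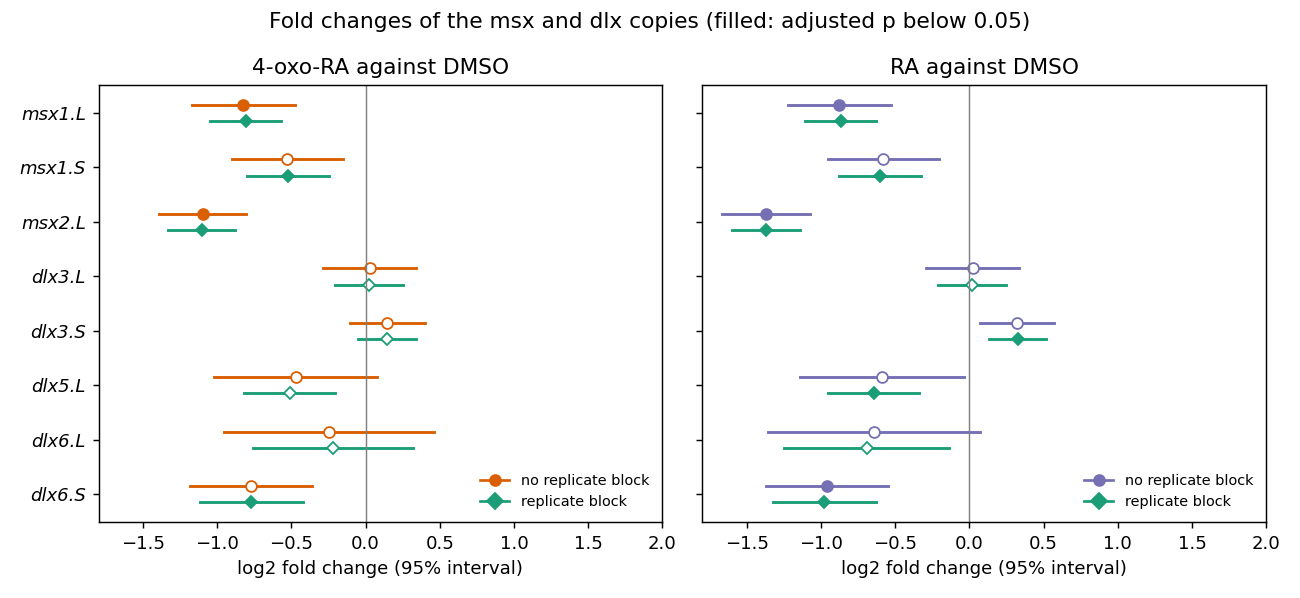
Log2 fold changes of the 8 copies with 95% intervals, 4-oxo-RA against DMSO on the left and RA against DMSO on the right; circles are the fit without and diamonds the fit with the replicate block, and filled symbols passed the adjusted p threshold of 0.05. Without the block 2 copies are filled with 4-oxo-RA and 3 with RA, with msx2.L farthest below 0 in both.

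The other copies were also set against the dlx3 copies within each library, which needs no library size. Per 100 counts of dlx3.L and dlx3.S together, msx2.L had on average 12.3 ± 1.78 counts with 4-oxo-RA, 9.44 ± 1.08 with RA and 28.0 ± 3.36 with DMSO (SD, n = 3 each). msx1.L had 25.01 ± 5.39, 22.1 ± 2.05 and 46.1 ± 5.30 counts in the same order of groups. In both cases each retinoid library was below each DMSO library. The same was true of msx1.S, with 15.1, 13.5 and 23.0 counts on average, and of dlx6.S, with 6.58, 5.34 and 11.8 counts. For dlx5.L, at 13.3, 11.6 and 19.98 counts, the RA group overlapped the DMSO group, and for dlx6.L both retinoid groups did. The 4-oxo-RA group of dlx5.L did not overlap the DMSO group in this ratio, though it did in CPM through replicate 1. In that library the reference was high, with dlx3.L at 129 CPM and dlx3.S at 173 CPM, each above every DMSO library. This reference was chosen after the values were seen, so the ratios are a description without a test, and they are shares of counts, not of transcripts. The reference was also not level, since all RA libraries lay above all DMSO libraries for dlx3.S, which enlarges the falls with RA. In CPM, 5.28% of all genes lay wholly below DMSO with 4-oxo-RA and 6.96% with RA. The share for such ratios was not computed.

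**Figure D3:**
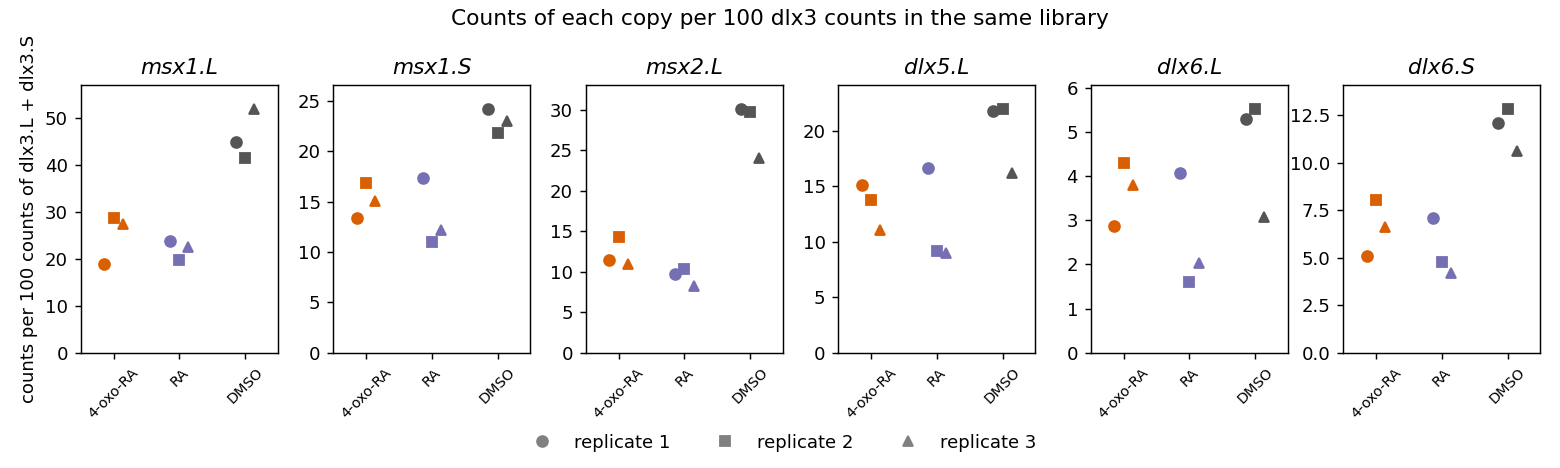
Counts of each copy per 100 counts of dlx3.L plus dlx3.S in the same library, a panel per copy, with 4-oxo-RA left, RA in the middle and DMSO right; points are libraries and marker shapes are replicate numbers. For msx2.L the 4-oxo-RA libraries lie at 10.95 to 14.3 and the RA libraries at 8.24 to 10.4, below the DMSO libraries at 24.1 to 30.1.

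Whether the L and S copies of one gene differed in response was tested as the log2 ratio of their counts within a library, in limma over 3512 pairs. For msx1 the L copy took 62.1% ± 3.2 of the counts with 4-oxo-RA, 62.5% ± 3.89 with RA and 66.7% ± 2.35 with DMSO (SD, n = 3 each). For dlx3 it took 43.2% ± 1.33, 40.1% ± 2.53 and 45.1% ± 3.71 in the same order. For dlx6 it took 35.8% ± 0.835, 31.6% ± 5.72 and 27.7% ± 4.53. Without the replicate block none of the 3 ratios was called, against 0.0285% of all pairs with 4-oxo-RA and 0.911% with RA. None had an unadjusted limma p below 0.05 there, against 237 of 3512 pairs with 4-oxo-RA and 313 with RA. With the block none was called either, but 1 ratio with 4-oxo-RA and 2 with RA were at an unadjusted limma p below 0.05. Over all pairs these were 405 and 526 of 3512. The difference in log2 ratio was 0.55 for dlx6 with 4-oxo-RA (95% interval -0.04 to 1.15, limma adjusted p = 0.762) and -0.30 for dlx3 with RA (95% interval -0.60 to 0.01, limma adjusted p = 0.578). The called dlx6.S and the uncalled dlx6.L were therefore not shown to differ in response, nor were msx1.L and msx1.S.

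Set directly against each other, 10 µM 4-oxo-RA and 1 µM RA gave no called copy. In edgeR without the replicate block 0 of 8 copies passed and none had an unadjusted p below 0.05. Neither DESeq2 nor limma-voom called any of them. Over all genes the share called was 0%, or 0.159% with the replicate block, which called none of the 8 copies. With the block 1 of the 8 copies was at an unadjusted edgeR p below 0.05, against 1600 of 20811 genes. With the block and without number 1, 2 or 3 it was 3, 0 and 1 copies. Over all genes these were 1667 of 21285, 1689 of 20333 and 922 of 20155. Without the block 532 genes were at an unadjusted p below 0.05, and DESeq2 called 13 genes and limma-voom 1. msx2.L averaged 31.8 ± 4.24 CPM with 4-oxo-RA and 26.2 ± 1.45 CPM with RA (SD, n = 3 each), a log2 difference of 0.27 with a 95% interval of -0.02 to 0.57. It was higher with 4-oxo-RA in 3 of 3 replicate numbers, by log2 0.39, 0.29 and 0.13. For msx1.L the log2 difference was 0.05 (95% interval -0.29 to 0.40), for msx1.S 0.05 (-0.32 to 0.43) and for dlx3.L 0.01 (-0.31 to 0.32). Intervals were wider for dlx6.L, at 0.40 (-0.32 to 1.12), and dlx5.L, at 0.12 (-0.43 to 0.67). dlx3.S was at -0.17 (-0.43 to 0.08) and dlx6.S at 0.19 (-0.23 to 0.60). All of these intervals, which are from the fit without the block, hold 0. The upper bounds for msx2.L, dlx5.L, dlx6.L and dlx6.S leave room for a difference of over 0.5 on the log2 scale.

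Across replicate numbers the difference from the DMSO library of the same number varied most for dlx6.L, with an SD of log2 0.369 with 4-oxo-RA and 0.740 with RA. msx2.L differed from DMSO by log2 -1.02, -1.04 and -1.24 with 4-oxo-RA and by -1.41, -1.33 and -1.37 with RA in numbers 1, 2 and 3, so its differences were alike across numbers. dlx5.L differed by log2 -0.17, -0.65 and -0.67 with 4-oxo-RA and by -0.18, -1.06 and -0.67 with RA. dlx6.L differed by log2 -0.52, -0.33 and 0.19 with 4-oxo-RA and by -0.16, -1.55 and -0.41 with RA. For msx1.L, msx1.S, dlx5.L, dlx6.L and dlx6.S the RA difference was smallest in number 1. With 4-oxo-RA this was so for dlx5.L only among these copies. There number 1 held the largest fall of dlx6.L and of dlx6.S (log2 -0.88, -0.65 and -0.79 in numbers 1, 2 and 3). For both msx1 copies it held the middle fall. Replicate number 1 also held the most muscle marker counts in each group, at 379 CPM with 4-oxo-RA, 370 CPM with RA and 519 CPM with DMSO, against 15.4 to 181 CPM in the other 6 libraries. Of the 8 muscle marker rows 2 were at 0 in each group. The neural crest markers of RA replicate 1 summed to 349 CPM, against 169 and 187 CPM in the other RA libraries. The part of these markers in the msx and dlx values was not tested.

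**Figure D4:**
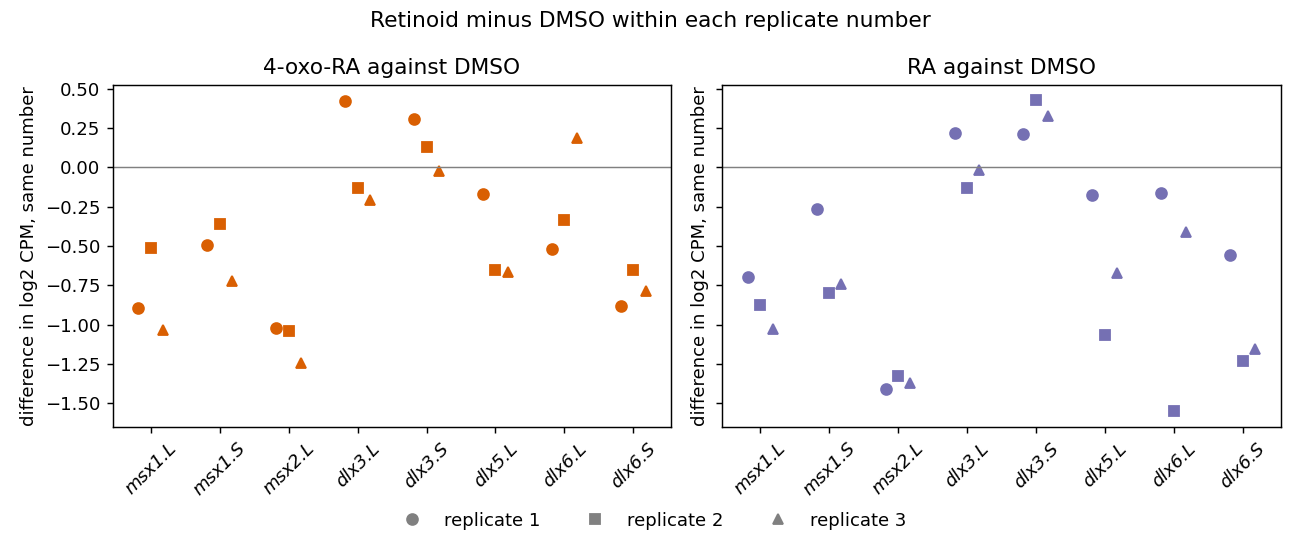
Difference in log2 CPM between a retinoid library and the DMSO library of the same replicate number, for the 8 copies, 4-oxo-RA on the left and RA on the right; marker shapes are replicate numbers and the line is at 0. The msx2.L points lie close together, from -1.24 to -1.02 with 4-oxo-RA and from -1.41 to -1.33 with RA, while dlx6.L spreads from -0.52 to 0.19 and from -1.55 to -0.16.

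Other msx and dlx genes were sparse. dlx2.L, a gene of migrating crest and forebrain, averaged 12.8 ± 2.76 CPM with 4-oxo-RA, 15.7 ± 4.78 CPM with RA and 25.6 ± 6.65 CPM with DMSO (SD, n = 3 each). Its log2 fold change was -1.01 with 4-oxo-RA (SE 0.27, edgeR adjusted p = 0.226) and -0.71 with RA (SE 0.27, adjusted p = 0.376). Under the replicate block both were called, at edgeR adjusted p of 0.00233 with 4-oxo-RA and 0.0143 with RA. The blocked RA call was lost without number 2, and the blocked 4-oxo-RA call was kept without any 1 number. Of 17 alternatives, 6 called dlx2.L with 4-oxo-RA and 3 with RA. dlx4.S averaged 2.36 ± 0.508 CPM, 2.37 ± 1.26 CPM and 1.90 ± 1.23 CPM in the same order of groups. The rows dlx2.S and dlx4.L were at 0 in every library.

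Among the other transcription factors of the neural border, few passed without the block, and those that did rose. Of 25 tested rows 2 rose with 4-oxo-RA and 3 with RA, and edgeR called none lower, with 2 rows lower at an unadjusted p below 0.05 with 4-oxo-RA and 7 with RA. DESeq2 called 1 lower with 4-oxo-RA and 3 with RA, and limma-voom 0 and 2. Those that rose were znf703.S and znf703.L, which encode a zinc-finger repressor that retinoic acid induces in the frog, and, with RA, prdm1.S, a repressor active at the border. znf703.S had a log2 fold change of 1.64 with 4-oxo-RA (SE 0.11, edgeR adjusted p = 8.05e-05) and 2.13 with RA (SE 0.11, adjusted p = 5.67e-06). znf703.L was at 1.53 and 2.05 in the same order. prdm1.S was at 0.43 with 4-oxo-RA, not called, and 0.73 with RA (edgeR adjusted p = 0.0123), a call lost without RA replicate 2 or 3 or DMSO replicate 1 or 2, at an adjusted p of up to 0.0721. In the blocked fit 5 rows rose and 3 fell with 4-oxo-RA, and 5 rose and 10 fell with RA. The 3 that fell with 4-oxo-RA were csrnp1.L, tfap2b.L and zic5.S, and the 10 that fell with RA also held both copies of pax3, zic1 and zic2, the partners of Msx proteins at the border, and hes4.L. These names were chosen after their values were seen. pax3.S was at log2 -0.85 (edgeR adjusted p = 0.00601) and zic1.L at -1.26 (adjusted p = 4.63e-04) with RA in that fit. How the blocked calls of this list hold gene by gene without a replicate number is not shown here. With single libraries left out and no block, edgeR called 0 to 4 rows of the list lower with RA. The 10 of the blocked fit was the most under any alternative. The median log2 fold change of the list was -0.01 with 4-oxo-RA and -0.42 with RA. Over all genes, 1298 of 20811 were at an unadjusted edgeR p below 0.05 with 4-oxo-RA and 1961 of 20811 with RA, in either direction. Counts at an unadjusted p in this list and the lists below are to be read beside these.

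Neural crest genes, which act downstream of the border factors, had a median log2 fold change of -0.40 with 4-oxo-RA and -0.60 with RA over 22 tested rows. Of these, 1 fell with 4-oxo-RA (snai2.S) and 4 with RA (snai2.S, sox9.S, snai2.L and, named after its value was seen, twist1.S). edgeR called none higher, with 1 row higher at an unadjusted p below 0.05 in each comparison, DESeq2 called 0 higher with 4-oxo-RA and 1 with RA, and limma-voom none. snai2.S, which encodes the crest repressor Slug, averaged 2.65 ± 0.765 CPM with 4-oxo-RA, 1.57 ± 0.638 CPM with RA and 8.94 ± 1.42 CPM with DMSO (SD, n = 3 each). Its log2 fold change was -1.75 with 4-oxo-RA (edgeR adjusted p = 0.0418) and -2.53 with RA (adjusted p = 0.00341). The 4-oxo-RA call was lost when any 1 library was left out, at up to 0.209, and the RA call was kept in each case. snai2.L was at -1.23 with 4-oxo-RA, not called, and -2.19 with RA (edgeR adjusted p = 0.0284). The snai2.L and twist1.S calls with RA were lost when any library but RA replicate 1 was left out, at edgeR adjusted p of up to 0.135. sox9.S was at -0.66, not called, and -0.95 (edgeR adjusted p = 0.0139), and its RA call was lost without RA replicate 2 or 3 or DMSO replicate 3, at up to 0.0682. With L and S summed sox9 was at -0.03 with RA (edgeR adjusted p = 0.995), and sox9.L averaged 53.1 ± 15.2 CPM with RA and 23.7 ± 6.72 CPM with DMSO. With the replicate block 5 rows fell with 4-oxo-RA and 12 with RA, and sox9.L rose in both.

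Genes of the preplacodal ectoderm, the placode precursor, moved in both directions. With 4-oxo-RA 3 of 13 rows rose and edgeR called none lower, with 3 lower at an unadjusted p below 0.05, against 2 called by DESeq2 and 0 by limma-voom. With RA 3 rose and 3 fell. In the blocked fit 5 rose and 3 fell with 4-oxo-RA, and 5 rose and 4 fell with RA. Those that rose were foxi4.2.S, a forkhead gene of the posterior placodes, and both copies of pax8, a gene of the ear placode. pax8.S averaged 18.2 ± 1.97 CPM with 4-oxo-RA, 21.1 ± 5.19 CPM with RA and 4.67 ± 2.06 CPM with DMSO, a log2 fold change of 1.99 with 4-oxo-RA (edgeR adjusted p = 0.00937) and 2.21 with RA (adjusted p = 0.00283). pax8.L was at 1.51 and 1.74, and foxi4.2.S at 1.14 and 1.55. The 4-oxo-RA calls were lost without DMSO replicate 2, for foxi4.2.S also without DMSO replicate 1, at edgeR adjusted p of up to 0.0713. Among the rows that fell with RA, named after their values were seen, were dmrta1.S, a gene of the anterior placodes, at log2 -2.17, and pitx1.L, a gene of the cement gland and anterior placodes, at -0.99.

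Non-neural ectoderm genes other than dlx3 and dlx5 had a median log2 fold change of -0.15 with 4-oxo-RA and 0.01 with RA over 15 tested rows. gata3.S, a transcription factor gene of the outer ectoderm, rose with both, at log2 1.14 (edgeR adjusted p = 4.35e-04) and 1.54 (adjusted p = 3.19e-05). krt70.L, an epidermal keratin gene, fell with RA, at -0.85 (edgeR adjusted p = 0.00896), and was at -0.67 with 4-oxo-RA. With L and S summed krt70 was at -0.09 with RA (edgeR adjusted p = 0.947); krt70.S averaged 4728 ± 420 CPM with RA and 4699 ± 673 CPM with DMSO. Under the replicate block 5 rows fell and 1 rose with 4-oxo-RA, and 6 fell and 3 rose with RA. Epidermis markers summed to 8414 to 9148 CPM with 4-oxo-RA, 7858 to 9759 CPM with RA and 7714 to 9971 CPM with DMSO, with overlap of all groups.

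**Figure D5:**
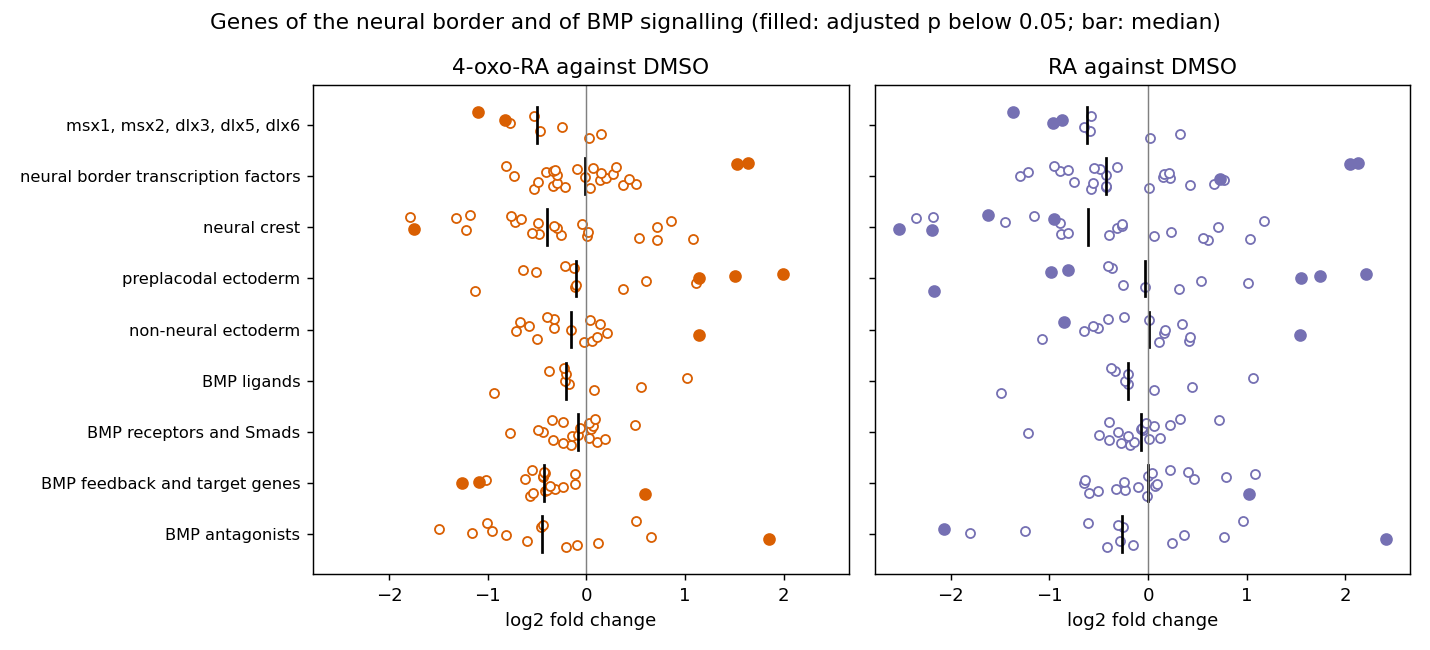
Log2 fold changes of the tested rows of each gene list, 4-oxo-RA against DMSO on the left and RA against DMSO on the right; points are genes, filled points passed the adjusted p threshold of 0.05, and black bars are list medians. The msx and dlx row has its median at -0.50 with 4-oxo-RA and -0.62 with RA.

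Since msx and dlx genes respond to BMP, the genes of that pathway were set beside them. Of 9 tested BMP ligand rows none was called by edgeR in either comparison, with 2 at an unadjusted p below 0.05 in each. DESeq2 called 0 with 4-oxo-RA and 1 with RA, and limma-voom none. In the blocked fit bmp5.L rose (log2 1.04 with 4-oxo-RA and 1.08 with RA). In that fit admp.S, an organizer ligand, fell (log2 -0.87 and -1.30 in the same order). It averaged 6.90 ± 3.97 CPM with 4-oxo-RA, 4.73 ± 1.64 CPM with RA and 13.3 ± 9.47 CPM with DMSO (SD, n = 3 each). Both retinoid groups overlapped the DMSO libraries, which ran from 4.76 to 23.5 CPM. How the blocked calls of bmp5.L and admp.S hold without a replicate number is not shown here. Of 19 rows of receptors and Smad proteins, which carry the signal, edgeR called none either, with 2 at an unadjusted p below 0.05 with 4-oxo-RA and 3 with RA. For these DESeq2 and limma-voom each called 0 with 4-oxo-RA and 1 with RA. With the block smad4.1.S rose with 4-oxo-RA (log2 0.51) and bmpr1b.S fell with RA (log2 -1.30). The BMP pathway genes named here and below from the blocked fit alone were chosen after their values were seen.

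Feedback and target genes of BMP had a median log2 fold change of -0.43 with 4-oxo-RA and 0.00 with RA over 19 tested rows. id2.L, which encodes an inhibitor of basic helix-loop-helix factors, rose with both, at log2 0.60 (edgeR adjusted p = 0.0381) and 1.02 (adjusted p = 6.66e-04). The 4-oxo-RA call of id2.L was lost when any 1 library was left out, at up to 0.182. szl, which encodes Sizzled, a secreted inhibitor of chordin-cleaving proteases, fell with 4-oxo-RA, at -1.09 for szl.S (edgeR adjusted p = 0.0332) and -1.26 for szl.L (adjusted p = 0.0433). Of the single libraries left out, only 4-oxo-RA replicate 2 left both szl calls standing, and without the others the edgeR adjusted p reached 0.201. With RA szl.S was at -0.24 and szl.L at -0.65, neither called, and the direct comparison of the retinoids gave szl.S a log2 difference of -0.84 that edgeR did not call (adjusted p = 1.0). With the replicate block 6 rows fell and 1 rose with 4-oxo-RA, and 3 fell and 3 rose with RA, with both copies of id3, another BMP target, lower in both. In that fit ventx2.1.S and ventx2.2.S, homeobox targets of BMP, were lower with 4-oxo-RA than with RA, at log2 -1.16 (edgeR adjusted p = 9.52e-04) and -0.81 (adjusted p = 0.00460).

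BMP antagonists had a median of -0.45 with 4-oxo-RA and -0.27 with RA over 14 tested rows. fst.L, which encodes follistatin, averaged 56.8 ± 8.48 CPM with 4-oxo-RA, 83.8 ± 12.5 CPM with RA and 15.9 ± 6.84 CPM with DMSO (SD, n = 3 each). It rose by log2 1.85 with 4-oxo-RA (edgeR adjusted p = 0.00680) and 2.41 with RA (adjusted p = 6.56e-04). It was the only antagonist that edgeR without the block called with 4-oxo-RA. At an unadjusted edgeR p below 0.05, 5 rows were lower and 1 higher with 4-oxo-RA, and 4 lower and 2 higher with RA. DESeq2 called 1 lower and 1 higher with 4-oxo-RA, and 3 lower and 2 higher with RA. For limma-voom these were 0 and 1 with 4-oxo-RA, and 3 and 1 with RA. nog2.S, a noggin gene, fell with RA, at -2.07 (edgeR adjusted p = 0.0212), and was at -1.50 with 4-oxo-RA. Its call was lost without RA replicate 2 or 3 or DMSO replicate 2 or 3, at up to 0.105. Under the replicate block 5 rows fell and 1 rose with 4-oxo-RA, and 3 fell and 2 rose with RA.

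The genes whose levels were most like those of the called copies were found by Pearson's r of log2 CPM over the 9 libraries, among 10007 genes averaging 5 CPM or more. These libraries share the treatments, so the values are a description. For msx2.L they included egr2.L (r = 0.990) and epha4.S (r = 0.978). egr2, also called krox20, marks hindbrain rhombomeres, and egr2.L averaged 0.939 CPM with 4-oxo-RA, 0.647 CPM with RA and 21.5 CPM with DMSO. egr2.L thus passed the mean of 5 CPM through the DMSO group only. With group means removed, r with msx2.L was 0.920 for epha4.S, an ephrin receptor gene of the hindbrain. epha4.S was picked by its r over these same libraries, so the 0.920 is no separate evidence of a link. For msx1.L they were pdp2.S (r = 0.972), lmo3.S (r = 0.963) and plekha7.L (r = 0.953), none of which was called against DMSO. For dlx6.S they were hes5.5.S (r = 0.981), klf17.1.S (r = 0.977) and tnfrsf19.L (r = 0.969), and klf17.1.S was called lower with both, at log2 -1.05 with 4-oxo-RA (edgeR adjusted p = 0.0464) and -1.22 with RA (adjusted p = 0.0124). The 4-oxo-RA call was lost without any 1 library, at up to 0.242, and the RA call without RA replicate 2 or 3 or DMSO replicate 2, at up to 0.0620.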

How the data were processed

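The authors deposited raw counts per gene for 9 libraries, whole numbers with no normalization. The labels' protocols give a stranded mRNA kit and paired reads, and the submitters' processing notes name STAR 2.7.3. The counting program, genome build and annotation are not given in the sources used here. The 9 single-library tables equalled their columns in the joint table, 9 of 9 columns were used, and 0 rows named no gene.

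Counts were tested in R 4.3.3 with edgeR 4.0.16 (filterByExpr, TMM, glmQLFit, glmQLFTest; all 9 libraries in 1 fit; Benjamini-Hochberg adjustment over 20811 genes; threshold 0.05). CPM values, zero-count limits included, use TMM-scaled library totals, and log2 CPM a prior count of 2. Ratios of L to S counts used limma 3.58.1 with a pseudocount of 0.5. Scripts were tested on simulated data, where the outcome required was on median fold changes only. The simulated counts held no effect of the replicate number, so the blocked fit was not tested with such an effect. Alternatives were DESeq2 1.42.0, limma-voom, RLE factors, no filter, 2 groups only, summed copies, a threshold of 0.01, single libraries left out and the replicate number as a block.

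Libraries of the same replicate number deviated together (r of 0.434 to 0.536 over 9 pairs, against -0.326 to -0.132 over 18 pairs of different numbers). Deviations were taken from the group means and so cancel within a group. Positive values for same numbers therefore push those for different numbers to negative values, which add no evidence of their own. The labels do not state what a number marks, so the pairing rests on the correlations between libraries of the same number. The biological coefficient of variation was 0.272 without and 0.138 with the block.

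The copies and gene lists were chosen with earlier results of these data known. Each list is given by counts, with up to 3 called genes of smallest adjusted p per comparison against DMSO named. Others were named after their values were seen. These include genes called in the blocked fit alone, namely bmp5.L, admp.S, smad4.1.S, bmpr1b.S, both copies of id3, ventx2.1.S, ventx2.2.S and sox9.L. How the blocked calls of these genes hold without a replicate number is not shown here. Some genes that these rules would name are not reported here. RefSeq (assembly Xenopus_laevis_v10.1) gave neighbours and matched 10 of 10 copies by symbol. Zero-count limits use 3 counts and cover counting error only.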

Additional observations from a re-analysis of the deposited data

How the results depend on the processing

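With RA, 3 copies were called in the fit reported, 6 with the replicate block, 7, 3 and 3 with that block and without replicate number 1, 2 or 3 (an alternative added after the values were seen), 2 with only the 2 groups compared and 2 with L and S summed, 1 at an adjusted p below 0.01, and 1 to 4 with single libraries left out, the 1 being without RA replicate 2 or DMSO replicate 3. With 4-oxo-RA, 2 copies were called in the fit reported, 4 with the replicate block, 4, 2 and 2 with the block and without replicate number 1, 2 or 3 (the 4 without number 1 hold dlx5.L in place of msx1.S), and 1 under limma-voom, with only the 2 groups compared, with L and S summed, at an adjusted p below 0.01 and without each single library (lowest and highest 1). DESeq2 called 3 with 4-oxo-RA (331 of 20811 genes), and the fit with no filter 3 of 9 (453 of 41216), dlx6.S being added both times. With RA DESeq2 called 3 (651 of 20811 genes) and the fit with no filter 4 of 9 (831 of 41216), msx1.S being added in the latter. Apart from the copies named with a blocked value in the text, the replicate block changed no other call among the 8 copies. The calls over all genes also moved. With RA they were 349 of 20811 in the fit reported, 1389 with the block and 161 at an adjusted p below 0.01. Blocked without replicate number 1, 2 or 3 they were 1262 of 21285, 822 of 20333 and 806 of 20155. They ran from 194 to 366 with single libraries left out. With 4-oxo-RA the same calls were 153, 700 and 78 of 20811, then 569, 376 and 408, then 75 to 112. The direct comparison of 4-oxo-RA and RA and the L to S ratios gave 0 called under every alternative run. Summing L and S also ended the calls of nog2.S and twist1.S with RA and of snai2.S and klf17.1.S with 4-oxo-RA. Signs turned only for values that were not called. In log2 fold change, dlx3.L ranged from -0.078 to 0.14 with 4-oxo-RA and from -0.072 to 0.13 with RA when single libraries were left out, and was -0.17 and -0.080 with the block and without number 1. dlx4.S with RA ranged from -0.15 (without RA replicate 2) to 0.97 and was -0.058 with the block and without number 1. In 4-oxo-RA against RA, leaving out single libraries took msx1.L to between -0.052 and 0.13, msx1.S to between -0.10 and 0.25, dlx3.L to between -0.10 and 0.095 and dlx5.L to between -0.11 and 0.44. There dlx3.L was -0.10 with L and S summed and -0.094 with the block and without number 1, and msx1.L and msx1.S were both -0.10 with the block and without number 2. Little can be said of dlx5.S and msx2.S, at or near 0 counts, and dlx6.L had the widest 95% intervals of the 8 copies. The cause was not tested for any of these shifts.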

Other observations

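The table also holds 2 rows that the files name provisionally as dlx1 and that lie next to dlx2.L and dlx2.S in the RefSeq annotation. The row beside dlx2.L averaged 2.28 ± 0.485 CPM with 4-oxo-RA, 2.12 ± 0.251 CPM with RA and 4.2 ± 0.814 CPM with DMSO (SD, n = 3 each). Its log2 fold change with RA was -0.97 (edgeR adjusted p = 0.240), which was not called. The row beside dlx2.S averaged 0.482 ± 0.430 CPM, 0.491 ± 0.539 CPM and 1.75 ± 0.240 CPM in the same order of groups.

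Between the copies themselves, with group means removed, Pearson's r of log2 CPM over the 9 libraries was 0.832 for dlx6.L and dlx6.S, 0.705 for dlx5.L and dlx6.L, 0.571 for msx1.L and msx1.S and 0.550 for dlx3.L and dlx3.S. It was -0.579 for msx1.L and msx2.L, the copies that were called with both retinoids. These are only some of the pairs. Pairs that are neither L and S of the same gene nor neighbours also reached high values. msx1.S had 0.706 with dlx6.S, 0.705 with dlx5.L and 0.664 with dlx6.L. msx1.L had 0.236, -0.165 and 0.042 with these copies in the same order. These points share libraries and depth and are given as a description.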
